A study of Mus musculus with 18 samples.

Results

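This report describes 10 genes of the lower part of glycolysis and of lactate export in mouse macrophages: Aldoa, Tpi1, Pgk1, Pgam1, Eno1, Pkm, Ldha, Pdk1, Slc16a1 and Slc16a3. They were taken by name, through the GENCODE M21 annotation, from the 22598 genes of each deposited file. Of the 10, 9 had enough reads to be tested among 11563 tested genes, and Pgam1 did not.

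Glycolysis splits glucose into pyruvate in the cytosol. Aldolase A (Aldoa) cuts the 6-carbon sugar into triose phosphates, triose phosphate isomerase (Tpi1) interconverts them, and phosphoglycerate kinase (Pgk1), phosphoglycerate mutase (Pgam1), enolase (Eno1) and pyruvate kinase (Pkm) carry the product on to pyruvate. Lactate dehydrogenase A (Ldha) turns pyruvate into lactate, and pyruvate dehydrogenase kinase (Pdk1) switches off the enzyme complex through which pyruvate would enter the mitochondrial cycle. The monocarboxylate transporters MCT1 (Slc16a1) and MCT4 (Slc16a3) carry lactate across the cell membrane, MCT4 mostly outward. In macrophages this route is known to be raised by inflammatory activation and by low oxygen, the latter through the transcription factor HIF-1, which binds a short motif near many of these genes.

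The cells were bone-marrow-derived macrophages, which are primary macrophages grown in culture from mouse bone marrow, labelled wild type (WT). All 18 libraries, 3 in each of 6 groups, were collected at 18 h. The groups were an untreated control, cells given interferon-gamma (IFNg), and cells given IFNg together with tumour necrosis factor (TNF, TNFa in the labels), interleukin-1 beta (IL1b), lipopolysaccharide (LPS, a bacterial cell wall component) or hypoxia. No group had TNF, IL1b, LPS or hypoxia without IFNg, and the labels give neither doses nor the oxygen level, nor whether replicate libraries stem from different mice or dishes. The p-values therefore measure the spread between these libraries, which may be technical. Below, "the TNF group" and the like always contain IFNg.

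The libraries held 12270565 to 20952799 counts in genes, and replicates differed by far more than counting noise, with a chi-square of 12 or more for each degree of freedom in every pair, so that none was counted as a repeat. All 8 macrophage markers examined were expressed, with summed levels of 13300 to 26900 CPM (counts per 1000000 counts in tested genes, with the library total scaled by its TMM factor). This sum moved with treatment: 21300 to 26900 CPM in control, 13400 to 15000 with IFNg and 13300 to 14700 with IL1b. It was 13800 to 15200 CPM with LPS, 18500 to 20000 with TNF and 16700 to 17300 with hypoxia. The macrophage markers did not move together, so the sum does not describe each of them. Against control, IFNg raised 2 of the 8 (Mertk and Fcgr1) and lowered 5. Against IFNg, TNF raised 3 (Csf1r, Mertk and Cd14) and lowered 4 (Adgre1, Cd68, Lyz2 and Fcgr1). Against IFNg, LPS raised 3 and hypoxia raised 4, and each lowered 0. The T cell, B cell, NK cell, mast cell and erythroid lists had 0 tested genes. The 7 markers of neutrophils and granulocyte precursors summed to 75.4 to 110 CPM in control and 90.3 to 108 with IFNg. They summed to 7.95 to 14.4 CPM in the TNF group, 20.5 to 30.8 with LPS, 71.8 to 87.6 with IL1b and 58.6 to 79 with hypoxia, so they were lowest in the TNF and LPS groups. Other lists moved too. The 3 endothelial markers summed to 13.1 to 16.3 CPM in control, 38.9 to 48.6 with IFNg and 51.2 to 89 with TNF, the 4 dendritic cell markers to 1.65 to 4.04 in control and 6.15 to 8.01 with IFNg, and the 4 fibroblast markers to 9.66 to 12.5 in control and 3.39 to 5.74 with IFNg. The endothelial markers did not move together either: with TNF against IFNg, Kdr was higher, Pecam1 was lower and Cdh5 did not pass. The part of all these markers in the results was not tested. In bulk RNA, fewer cells of a type and less RNA per cell cannot be told apart. Log2 fold changes are given with their standard error (SE), and each adjusted p is from edgeR's quasi-likelihood test with Benjamini-Hochberg adjustment over all tested genes of a comparison.

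Several of the enzymes have near-identical copies elsewhere in the genome, mostly pseudogenes, and the measured level has to be read with that in view. Every 50-base stretch of the coding sequence, the length of 1 read, was looked up in the annotated transcripts of all other genes. For Pgk1 (chrX:106187100-106203699, plus strand) and Pgam1 (chr19:41911923-41918660, plus strand), 100% of the stretches occurred unchanged in another gene. The share was 83.3% for Eno1 (chr4:150236721-150248879, plus), 50.5% for Pkm (chr9:59656368-59679375, plus), 28.4% for Ldha (chr7:46841475-46855627, plus), 16.8% for Aldoa (chr7:126795234-126800751, minus) and 13.7% for Tpi1 (chr6:124810586-124814296, minus). For Pdk1 (chr2:71873224-71903858, plus), Slc16a1 (chr3:104638668-104658462, plus) and Slc16a3 (chr11:120948480-120960868, plus) it was 0%, also with up to 2 mismatches allowed. With up to 2 mismatches the share rose to 100% for Eno1, 94.7% for Pkm, 83.4% for Ldha, 70.4% for Aldoa and 56.6% for Tpi1. Positions are of the whole gene in GENCODE M21 (mm10). How the authors' counter treated reads with several possible origins is not given in the sources used here. The following stretches show the contrast, with capitals for sequence found unchanged in other genes and lower case for sequence found in none. The first holds coding bases 451 to 500 of Pgam1, found in 3 other genes, and the other holds bases 1 to 50 of Slc16a3.
Pgam1: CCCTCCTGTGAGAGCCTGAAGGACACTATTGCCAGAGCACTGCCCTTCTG
Slc16a3: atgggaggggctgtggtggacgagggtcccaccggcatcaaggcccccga

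The counts of these 2 wholly shared genes were very low. Pgk1 had 210 counts over all 18 libraries and Pgam1 had 42, against 462903 for Aldoa and 154193 for Slc16a3. Eno1, with 100% shared only when up to 2 mismatches are allowed, had 41494. Gapdh, the enzyme acting just before Pgk1, has 94.2% of its stretches in other genes and a mean of at most 0.362 CPM in any group. The levels of Pgk1 and Pgam1 are therefore given as counts, and no statement on the amount of their transcripts is made. For the other shared genes, how far the counts miss reads of the gene or hold reads of its copies was not tested.

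**Figure D1:**
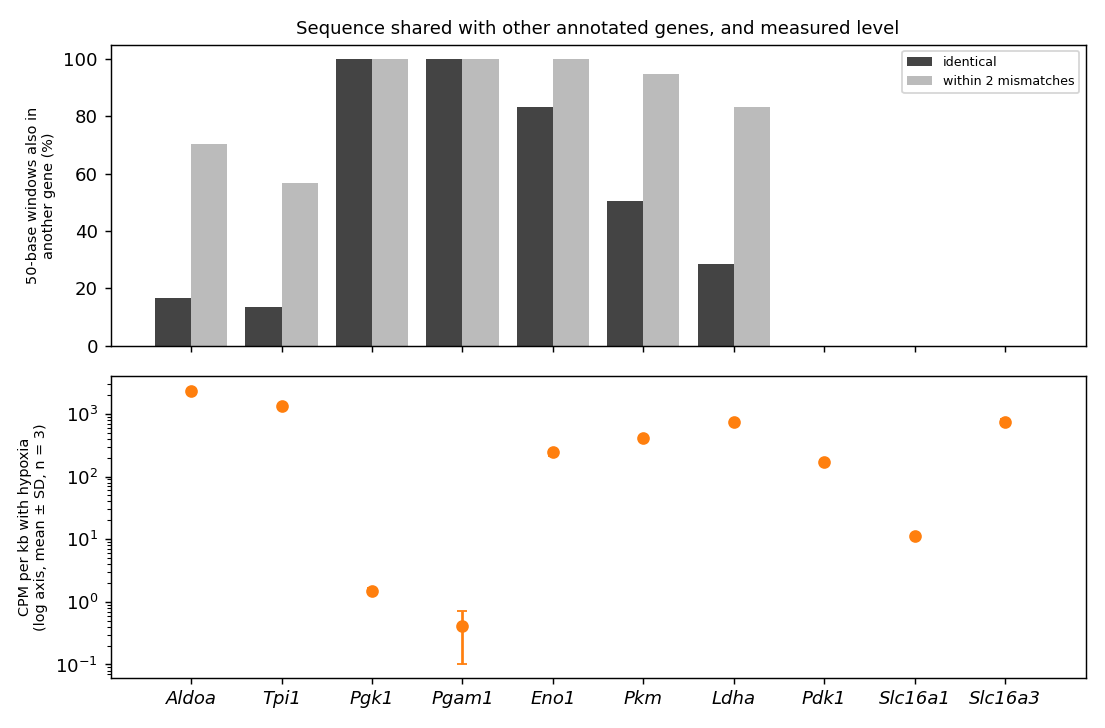
The upper panel gives, for each of the 10 genes, the percentage of 50-base coding stretches found in another annotated gene, unchanged (dark) or within 2 mismatches (light). The lower panel gives the level in the hypoxia group in CPM per kb of deposited gene width on a log axis (mean ± SD, n = 3): Pgk1 and Pgam1, with 100% shared unchanged, lie lowest.

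The promoters of 8 of the 10 genes carry the core of the HIF-1 motif, searched as ACGTG or GCGTG on both strands from 250 bases before to 50 after the start in RefSeq (GRCm38.p6). All 10 genes matched a RefSeq entry. Of 32851 promoters of the same length, 43.8% held at least 1 match, and 17.5% held 2 or more against 70% of the 10. A match says only that these letters are present. Where a gene had several starts, the one nearest to that of a principal GENCODE transcript was taken, and of 2 equally near Aldoa windows the one with the lower coordinate, which held 1 match where the other held 0. Over all 17 windows of the 10 genes, 76.5% held a match. The start taken lay 138 bases from the principal GENCODE start for Tpi1, 208 for Pkm and 244 for Eno1, and at most 52 for the others. A count of 0 matches therefore holds only for the window searched. The windows of 4 genes are shown because they stand for different patterns below: Slc16a3 changed most with TNF, Pdk1 was called with hypoxia and not with TNF, Ldha had 5 matches, and Tpi1 rose with TNF and hypoxia and had 0 matches. Capitals mark the matches. In Ldha they include the palindrome CACGTG, in which the motif reads on both strands and which 7.2% of all promoters hold.
Slc16a3, chr11:120948817-120949116, plus strand: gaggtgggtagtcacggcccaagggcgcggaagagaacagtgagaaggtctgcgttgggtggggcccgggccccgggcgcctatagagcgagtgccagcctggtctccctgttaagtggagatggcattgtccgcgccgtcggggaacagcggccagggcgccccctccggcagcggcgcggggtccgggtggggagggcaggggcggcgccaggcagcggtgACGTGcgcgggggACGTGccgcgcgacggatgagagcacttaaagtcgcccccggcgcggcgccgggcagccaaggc
Pdk1, chr2:71872974-71873273, plus strand: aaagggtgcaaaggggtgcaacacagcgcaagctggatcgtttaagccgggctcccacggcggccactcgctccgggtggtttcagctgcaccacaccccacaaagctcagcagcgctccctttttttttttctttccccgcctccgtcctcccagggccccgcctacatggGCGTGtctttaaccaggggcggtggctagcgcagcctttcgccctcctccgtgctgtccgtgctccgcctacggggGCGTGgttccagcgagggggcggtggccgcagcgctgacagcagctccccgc
Ldha, chr7:46845554-46845853, plus strand: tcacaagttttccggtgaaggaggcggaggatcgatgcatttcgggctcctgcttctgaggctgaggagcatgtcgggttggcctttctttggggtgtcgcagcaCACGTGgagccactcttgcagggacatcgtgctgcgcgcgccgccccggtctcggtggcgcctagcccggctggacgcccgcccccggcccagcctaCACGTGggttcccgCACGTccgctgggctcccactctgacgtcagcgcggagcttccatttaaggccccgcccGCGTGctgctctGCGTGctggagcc
Tpi1, chr6:124814109-124814408, minus strand: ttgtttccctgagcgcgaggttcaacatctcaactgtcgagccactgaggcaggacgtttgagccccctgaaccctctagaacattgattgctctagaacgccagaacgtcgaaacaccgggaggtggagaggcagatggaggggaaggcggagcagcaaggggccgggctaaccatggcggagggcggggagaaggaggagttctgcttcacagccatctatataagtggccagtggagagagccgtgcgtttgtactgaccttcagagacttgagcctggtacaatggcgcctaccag
The matches of Slc16a3 began 27 and 14 bases before the gene start, and those of Pdk1 78 and 2 bases before it. Aldoa held 1 match, Pgk1 and Eno1 held 2 each, Pgam1 held 3, Slc16a1 held 4, and Pkm held 0 in the window taken and 2 in its other window.

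Across the groups, most of the genes followed 1 order: hypoxia and TNF highest, LPS next, then IL1b and IFNg, with control lowest. Levels are compared between genes only for Slc16a3, Pdk1 and Slc16a1, which share no stretch with other genes. With IFNg alone the mean level was 66.0 CPM per kb of gene width for Slc16a3, 49.2 for Pdk1 and 5.71 for Slc16a1. With hypoxia it was 740 CPM per kb for Slc16a3, 173 for Pdk1 and 11.3 for Slc16a1, and with TNF it was 1121, 60.4 and 9.06. The reads counted for the 7 glycolytic and lactate enzymes together took 0.167% ± 0.0100 (SD, n = 3) of the tested reads in control and 0.182% ± 0.0064 with IFNg. They took 0.222% ± 0.0077 with IL1b, 0.338% ± 0.051 with LPS, 0.439% ± 0.016 with TNF and 0.543% ± 0.014 with hypoxia. These are shares of raw counts, without TMM scaling. Pgk1 and Pgam1, with 210 and 42 counts over all libraries, added almost nothing to them, and Gapdh was not included. Given the shared stretches, they describe counted reads and not the enzymes' share of the RNA. After scaling, the mean sums were 1419 CPM in control, 1718 with IFNg, 2089 with IL1b and 3368 with LPS. They were 5294 CPM with TNF and 5955 with hypoxia. Aldoa had the most counted reads of the 7, with 846.5 CPM in control and 2465 with TNF, which does not rank the transcripts. Over the 18 libraries, the correlation of a gene with the mean of the other 8 tested genes was highest for Tpi1 (Pearson r = 0.985) and Aldoa (0.981). It was lowest for Pdk1 (0.802) and Slc16a1 (0.788). These are descriptions over libraries that share 6 treatments.

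**Figure D2:**
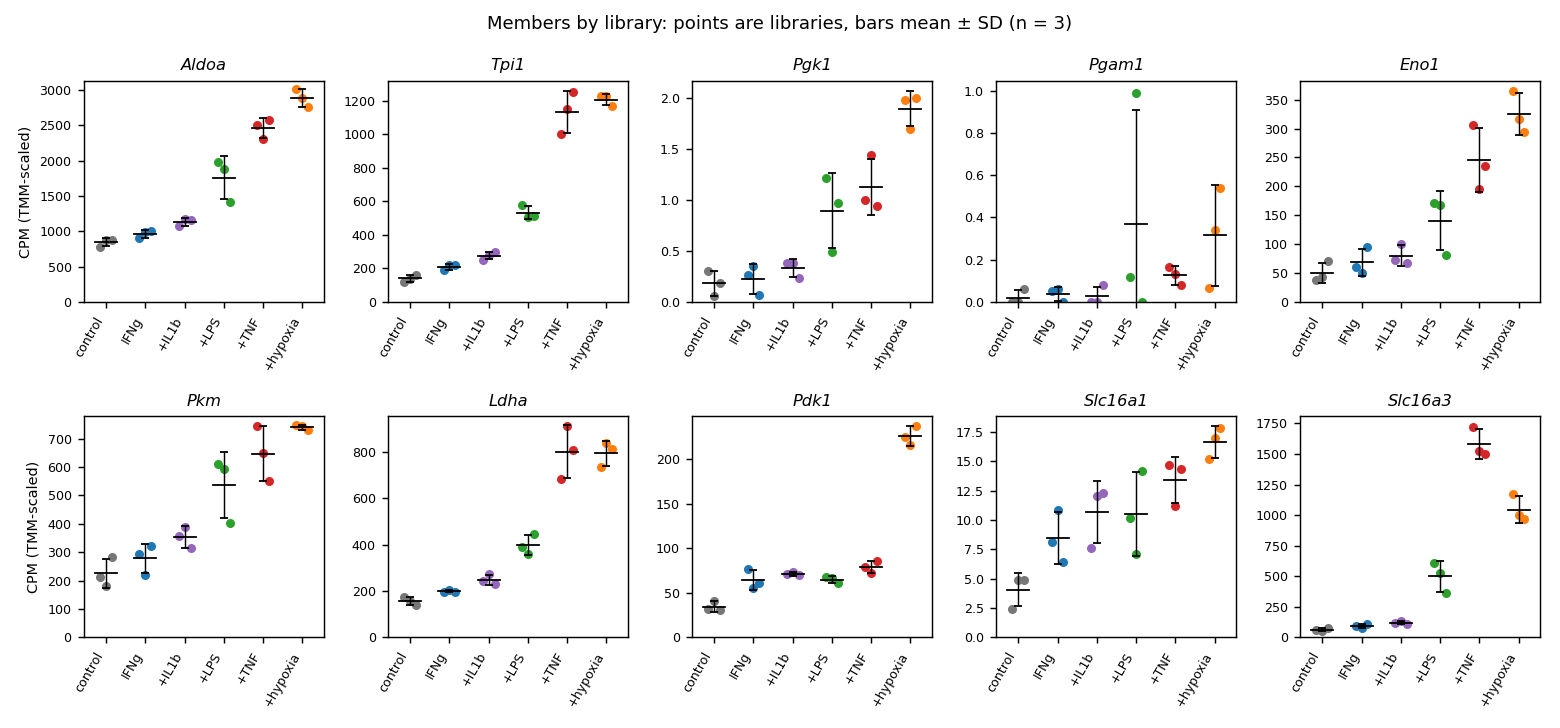
Each panel shows 1 gene, with the 18 libraries as points by group, horizontal bars for the group mean and error bars for the SD (n = 3), in CPM after TMM scaling on an axis from 0. Aldoa, Tpi1, Eno1, Pkm and Ldha were high with both TNF and hypoxia, Slc16a3 was highest with TNF, and Pdk1 was highest with hypoxia.

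The comparison of IFNg with control asked what IFNg did by itself. Of the 9 tested genes 5 rose and 0 fell, with a median log2 fold change of 0.43 over the 9 against -0.02 over all tested genes. Among all tested genes, 13.5% rose and 10% fell. The largest rise was in Slc16a1 and the firmest in Pdk1. Pdk1 stood at 31.8, 41.1 and 30.4 CPM in the control libraries and at 76.2, 55.0 and 61.3 CPM with IFNg, with no overlap. The log2 fold change was 0.90 ± 0.14 (adjusted p = 9.86e-06). Tpi1 went from 121, 139 and 160 CPM to 188, 219 and 219 CPM, also without overlap (0.58 ± 0.12, adjusted p = 0.000332). Slc16a1, a gene with 209 counts in the 3 control libraries together, went from 2.42, 4.89 and 4.90 CPM to 8.13, 10.8 and 6.43 CPM (1.06 ± 0.33, adjusted p = 0.0186). Slc16a3 went from 56.1, 52.9 and 76.6 CPM to 94.5, 78.1 and 107 CPM (0.59 ± 0.17, adjusted p = 0.0114), and Ldha from 174, 157 and 141 CPM to 196, 203 and 197 CPM (0.34 ± 0.12, adjusted p = 0.0352). The lowest IFNg library lay above the highest control library in 6 of the 9 genes, these 5 and Aldoa, which was not called. Such separation was not counted over all tested genes, here or below, so it does not mark these genes out. Aldoa (0.19 ± 0.11), Pkm (0.30 ± 0.17) and Eno1 (0.43 ± 0.31) did not pass the test, although Pkm did without control replicate 3 (0.50, adjusted p = 0.0428). The calls of Slc16a1, Slc16a3 and Ldha rested on single libraries. Without control replicate 1 the adjusted p was 0.116 for Slc16a1 and 0.0576 for Slc16a3. Without control replicate 2 it was 0.0705 for Slc16a3. Without IFNg replicate 2 it was 0.111 for Slc16a1, and without IFNg replicate 3 it was 0.0760 for Slc16a3. Ldha stayed past the threshold without control replicate 1 and lost the call without any of the other 5 libraries (0.0673 to 0.16). Ldha also lost it with DESeq2 size factors (0.0517) and with scaling to the totals behind the deposited RPKM values (0.19, adjusted p = 0.293), and Slc16a1 in a fit of only the 2 groups (0.0588).

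**Figure D3:**
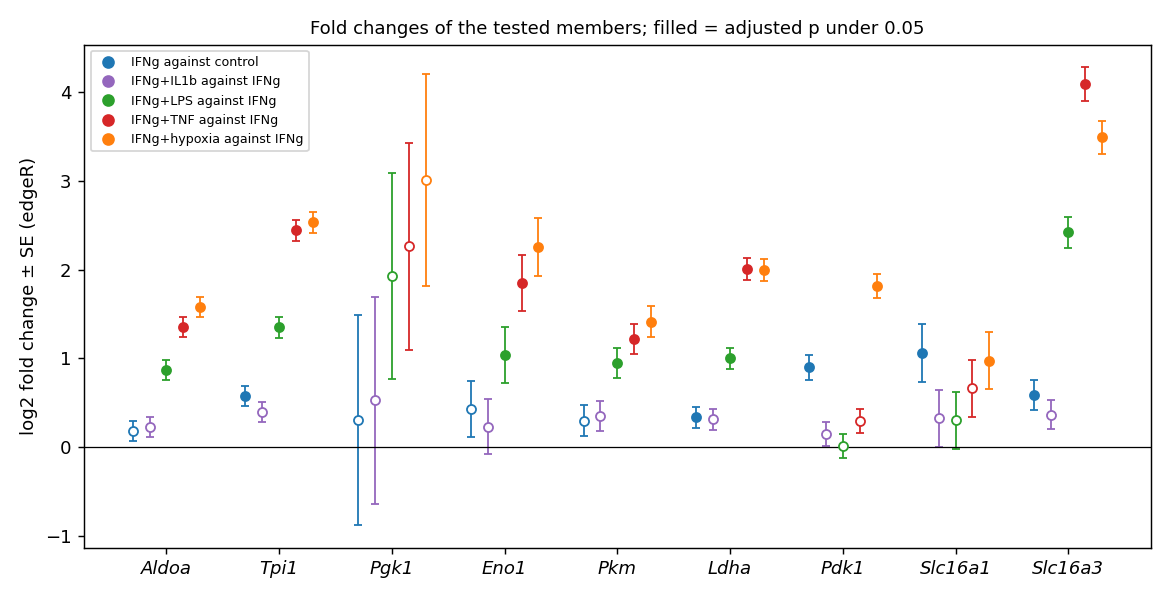
Log2 fold changes with their SE are plotted for the 9 tested genes in 5 comparisons: IFNg against control, and each addition against IFNg. Filled points have an adjusted p under 0.05. The TNF and hypoxia points lie close together for Aldoa, Tpi1, Pkm and Ldha and apart for Pdk1, where hypoxia gave 1.82 and TNF 0.29.

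Adding hypoxia to IFNg raised 8 of the 9 tested genes and lowered 0, with a median log2 fold change of 2.0 against -0.01 over all tested genes. Of all tested genes 13.5% rose and 11.8% fell. Slc16a3, the exporter MCT4, went from 78.1 to 107 CPM with IFNg to 1173, 997 and 965 CPM, an 11.2-fold rise (3.49 ± 0.18, adjusted p = 1.04e-12). Among the enzymes that passed the test, Tpi1 had the largest rise, to 1225, 1227 and 1166 CPM (2.53 ± 0.12, adjusted p = 1.28e-14). Eno1 stood at 366, 316 and 295 CPM against 60.9, 49.2 and 94.7 CPM with IFNg, a rise of 2.26 ± 0.32 (adjusted p = 8.21e-05). The 3 hypoxia libraries lay close together for both genes and far above the IFNg libraries. Ldha rose by 2.0 ± 0.12 to 732, 838 and 811 CPM, and Aldoa by 1.58 ± 0.11 to 3016, 2888 and 2756 CPM. Pkm rose by 1.42 ± 0.17 to 747, 744 and 731 CPM, from 294, 219 and 320 CPM. Pdk1, which inhibits the pyruvate dehydrogenase complex inside mitochondria, rose by 1.82 ± 0.14 to 225, 216 and 237 CPM (adjusted p = 1.22e-10). Its 3 hypoxia libraries were the 3 highest of all 18. Slc16a1 reached 15.2, 17.0 and 17.8 CPM (0.98 ± 0.32, adjusted p = 0.0257). This was the weakest of the 8 calls: the adjusted p was 0.0809 without IFNg replicate 1, 0.122 without IFNg replicate 3, 0.0621 without hypoxia replicate 2 and 0.0763 without hypoxia replicate 3, and 0.0939 with scaling to the RPKM totals.

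The same 3 IFNg libraries served as the reference for every addition. Adding TNF to IFNg raised 6 of the 9 genes and lowered 0, where 22.1% of all tested genes rose and 22.6% fell. The median over the 9 was 1.85 on the log2 scale against -0.05 over all tested genes. Slc16a3 reached 1724, 1527 and 1500 CPM, 17.0-fold the IFNg level (4.09 ± 0.19, adjusted p = 1.36e-14). This was the largest estimate among the 9. Tpi1 reached 1002, 1153 and 1250 CPM (2.44 ± 0.12, adjusted p = 3.92e-15), and Ldha reached 684, 910 and 807 CPM (2.01 ± 0.12, adjusted p = 2.33e-13). Eno1 stood at 306, 196 and 236 CPM (1.85 ± 0.32, adjusted p = 0.000187), Aldoa at 2502, 2310 and 2582 CPM (1.35 ± 0.11) and Pkm at 743, 648 and 550 CPM (1.22 ± 0.17). No TNF library overlapped an IFNg library for 8 of the 9 genes, these 6 and also Pgk1 and Slc16a1, which were not called. The same was not counted over all tested genes. Pdk1 and Slc16a1 did not pass. Pdk1 stood at 78.4, 72.5 and 85.5 CPM, a range that overlapped the IFNg libraries (0.29 ± 0.13, adjusted p = 0.0779). Without IFNg replicate 1 it was 0.44 (adjusted p = 0.0182), and with scaling to the RPKM totals -0.03. Slc16a1 stood at 14.7, 11.2 and 14.4 CPM (0.66 ± 0.32, adjusted p = 0.0953).

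Adding LPS to IFNg raised the same 6 genes and lowered 0, where 10.2% of all tested genes rose and 10.1% fell. The median over the 9 was 1.0. Slc16a3 reached 612, 526 and 359 CPM (2.42 ± 0.17, adjusted p = 2.85e-10) and Tpi1 576, 507 and 515 CPM (1.35 ± 0.12, adjusted p = 1.35e-09). Ldha reached 388, 360 and 447 CPM (1.0 ± 0.12), Pkm 612, 592 and 404 CPM (0.95 ± 0.17) and Aldoa 1977, 1885 and 1415 CPM (0.87 ± 0.11). LPS replicate 3 was the lowest LPS library for Slc16a3, Pkm, Aldoa and Eno1, and the highest for Ldha. Eno1 stood at 171, 168 and 81.5 CPM, of which the last lay within the IFNg range, and its call (1.04 ± 0.31, adjusted p = 0.0274) was lost without IFNg replicate 1 (0.105), IFNg replicate 2 (0.12), LPS replicate 1 (0.104) or LPS replicate 2 (0.113), and without a filter on low counts (0.0541). Pdk1, at 67.4, 66.1 and 60.8 CPM, lay inside the IFNg range (0.01 ± 0.13). Slc16a1 differed by 0.31 ± 0.32.

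Adding IL1b to IFNg called 0 of the 9 genes by edgeR's test. In this comparison 0.268% of all tested genes rose and 0.0346% fell. At an unadjusted p under 0.05 there were 4 of the 9, beside 596 of all 11563 tested genes. DESeq2 called 1 of the 9, Tpi1 (0.40, adjusted p = 0.0463), and 84 genes in all. All 9 estimates were above 0, from 0.15 ± 0.13 for Pdk1 to 0.53 ± 1.16 for Pgk1, whose counts were very low. The median over all tested genes was -6e-04. The 9 estimates come from the same libraries and are not independent. Tpi1 stood at 253, 277 and 296 CPM with IL1b against 188, 219 and 219 CPM with IFNg, without overlap (0.40 ± 0.12, adjusted p = 0.238). Ldha stood at 242, 272 and 229 CPM and Aldoa at 1070, 1176 and 1153 CPM, each above the IFNg libraries as well (0.32 ± 0.12 and 0.23 ± 0.11).

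TNF and hypoxia were set directly against each other, because both had raised the same enzymes. Of the 9 genes, 1 was higher with TNF and 1 was lower, where 18.9% of all tested genes were higher and 20.1% lower. Slc16a3 was 1.52-fold higher with TNF than with hypoxia (0.60 ± 0.16, adjusted p = 0.00536). Pdk1 was 2.87-fold lower with TNF (-1.52 ± 0.14, adjusted p = 6.48e-10), with no overlap between 72.5 to 85.5 and 216 to 237 CPM. The other enzymes did not pass. Their estimates were 0.01 ± 0.12 for Ldha, -0.09 ± 0.11 for Tpi1, -0.19 ± 0.17 for Pkm, -0.23 ± 0.11 for Aldoa and -0.41 ± 0.31 for Eno1, and Slc16a1 gave -0.31 ± 0.32. Scaling to the RPKM totals, which moved the median of all genes by -0.08 here, left Slc16a3 as the 1 higher gene and called 2 lower, adding Aldoa (-0.30, adjusted p = 0.022). A fit of only the 2 groups called Eno1 (-0.41, adjusted p = 0.0292).

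LPS was also compared with both. Against TNF, 4 genes were lower with LPS and 0 higher, where 13.1% of all tested genes were lower and 12.2% higher. They were Slc16a3 (-1.67 ± 0.17, adjusted p = 6.45e-08), Tpi1 (-1.09 ± 0.12), Ldha (-1.01 ± 0.12) and Aldoa (-0.49 ± 0.11). The Aldoa call was lost with scaling to the RPKM totals (-0.24, adjusted p = 0.0783). Eno1 (-0.81 ± 0.31, adjusted p = 0.0718) was called by DESeq2 (0.0473) and in a fit of only the 2 groups (0.0324). Against hypoxia, 7 genes were lower with LPS and 0 higher, where 15.5% of all tested genes were lower and 14.4% higher. Pdk1 differed the most (-1.80 ± 0.14, adjusted p = 9.17e-11), followed by Eno1 (-1.21 ± 0.31), Tpi1 (-1.18 ± 0.12), Slc16a3 (-1.07 ± 0.17), Ldha (-0.99 ± 0.12), Aldoa (-0.71 ± 0.11) and Pkm. The call of Pkm (-0.47 ± 0.17, adjusted p = 0.0397) was lost without LPS replicate 3 (0.197) or any 1 of the hypoxia libraries, replicate 1 (0.0936), replicate 2 (0.0882) or replicate 3 (0.0811). It was also lost with scaling to the RPKM totals (-0.30, adjusted p = 0.157) and without a filter on low counts (0.0596). Slc16a1 (-0.67 ± 0.32, adjusted p = 0.118) was called without LPS replicate 3 (0.046).

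Ordered by mean level, neighbouring groups could not always be told apart. For Slc16a3 the order was TNF, hypoxia, LPS, IL1b, IFNg and control, and every neighbouring pair differed except IL1b and IFNg. For Tpi1, hypoxia and TNF did not differ, nor did IL1b and IFNg, while TNF exceeded LPS, LPS exceeded IL1b (0.95 ± 0.12, adjusted p = 8.08e-07) and IFNg exceeded control. Ldha had the same pattern, with TNF placed before hypoxia. For Pdk1 only the ends of the order differed: hypoxia exceeded TNF and IFNg exceeded control, and the TNF, IL1b, LPS and IFNg groups followed each other at 78.8, 71.2, 64.7 and 64.2 CPM. For Eno1 no neighbouring pair differed (LPS exceeded IL1b without LPS replicate 3, adjusted p = 0.0221), and for Slc16a1 only IFNg exceeded control. In the LPS and IL1b pair, 14.1% of all tested genes differed in either direction, and in the IL1b and TNF pair 42.0% did.

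Pgk1 and Pgam1 are given as counts. Pgk1 had 6, 1 and 3 counts in control, 5, 6 and 1 with IFNg and 7, 6 and 3 with IL1b. It had 21, 9 and 14 counts with LPS, 18, 22 and 12 with TNF and 30, 20 and 26 with hypoxia. The last 3 groups lay above the first 3 in every library. The fitted difference between hypoxia and IFNg did not pass (3.01 ± 1.19, adjusted p = 0.0667), although DESeq2 (3.05, adjusted p = 0.00539) and a fit of only the 2 groups (2.98, adjusted p = 0.0318) called it. DESeq2 also called Pgk1 for TNF against IFNg (2.31, adjusted p = 0.031). Pgam1 had 1 count in control, 2 with IFNg, 1 with IL1b, 6 with TNF and 12 with hypoxia, each over 3 libraries. With LPS it had 2, 18 and 0 counts, so 1 library held nearly all of them.

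Each of these genes has relatives that could do the same work. Of 16 isozymes and sister transporters, 9 passed the filter on low counts. IFNg raised 1 (Pdk3) and lowered 1 (Aldoc), TNF raised 2 (Aldoc and Pdk3) and lowered 2 (Pdk2 and Slc16a7), LPS raised Pdk3 and lowered Slc16a7, and hypoxia raised Aldoc and lowered Slc16a7. These counts, of 9, lay near the shares over all tested genes in each comparison, 22.1% higher and 22.6% lower for TNF and 10.2% and 10.1% for LPS, so they say nothing particular about the list. Aldoc, a second aldolase, fell with IFNg (-0.62 ± 0.17, adjusted p = 0.0084), a call lost without IFNg replicate 2 (0.0673). It stood at 31.5 to 41.3 CPM with IFNg and at 208.9 to 229.7 CPM with hypoxia (2.54 ± 0.18, adjusted p = 3.34e-11), but at 51.6 to 74.0 CPM with TNF (0.67 ± 0.17), where scaling to the RPKM totals ended the call (0.35, adjusted p = 0.0969). The difference of TNF from hypoxia was -1.87 ± 0.17 (adjusted p = 1.32e-09). Among the pyruvate dehydrogenase kinases, Pdk3 had the opposite order of TNF and hypoxia to Pdk1. It reached 70.4 to 96.3 CPM with TNF, from 24.3 to 40.4 CPM with IFNg (1.41 ± 0.20, adjusted p = 1.42e-06), and 30.7 to 41.0 CPM with hypoxia (0.24 ± 0.20, adjusted p = 0.439). TNF exceeded hypoxia for Pdk3 by 1.18 ± 0.20 on the log2 scale (adjusted p = 2.4e-05). The rise of Pdk3 with IFNg was lost without IFNg replicate 2 (0.0522), and that with LPS without IFNg replicate 1 (0.123), IFNg replicate 3 (0.147), LPS replicate 2 (0.0881) or LPS replicate 3 (0.0661), and with scaling to the RPKM totals (0.0603). Pdk2 fell with TNF by 1.26 ± 0.30 on the log2 scale (adjusted p = 0.00105). Per kb, Pdk1 made up 57.5% ± 9.36 (SD, n = 3) of the summed level of Pdk1, Pdk2, Pdk3 and Pdk4 with IFNg, 46.5% ± 2.41 with TNF and 80.0% ± 0.862 with hypoxia. The hypoxia shares lay above all IFNg shares, at an exact two-sided permutation p of 0.1, the smallest that 3 against 3 libraries can give.

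Among the transporters, Slc16a7 (MCT2, with a high affinity for pyruvate and lactate) went opposite to Slc16a3. It stood at 28.2 to 33.0 CPM with IFNg and at 1.57 to 7.10 CPM with TNF, 6.69-fold lower (-2.74 ± 0.32, adjusted p = 5.48e-08). With hypoxia it was 2.0-fold lower (-1.0 ± 0.29, adjusted p = 0.0123). With LPS (-0.97 ± 0.29, adjusted p = 0.0173) the call was lost without IFNg replicate 2 (0.0562), LPS replicate 1 (0.0557) or LPS replicate 2 (0.0832). Basigin (Bsg), the membrane chaperone that brings MCT1 and MCT4 to the cell surface, stood at 236.9 to 265.4 CPM with IFNg, 547 to 799.6 CPM with TNF (1.46 ± 0.16, adjusted p = 2.18e-08) and 1132 to 1416 CPM with hypoxia (2.32 ± 0.16, adjusted p = 5.09e-11). The difference of TNF from hypoxia was -0.86 ± 0.15 for Bsg (adjusted p = 6.65e-05), the opposite order to Slc16a3. With LPS, Bsg differed by 0.42 ± 0.15 (adjusted p = 0.0571), and by 0.58 without LPS replicate 3 (adjusted p = 0.00485). DESeq2 called it too (0.0323). Embigin (Emb), the other chaperone, fell with IFNg (-0.35 ± 0.10) and TNF (-0.29 ± 0.10) and rose with hypoxia (0.41 ± 0.10). With scaling to the RPKM totals the Emb rise with hypoxia was lost (0.16, adjusted p = 0.257), and so it was without hypoxia replicate 3 (0.0518). The fall with IFNg was lost without control replicate 1 (0.0513) or IFNg replicate 2 (0.0605), and that with TNF without IFNg replicate 1 (0.0724), IFNg replicate 3 (0.0724), TNF replicate 1 (0.118) or TNF replicate 2 (0.0524).

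**Figure D4:**
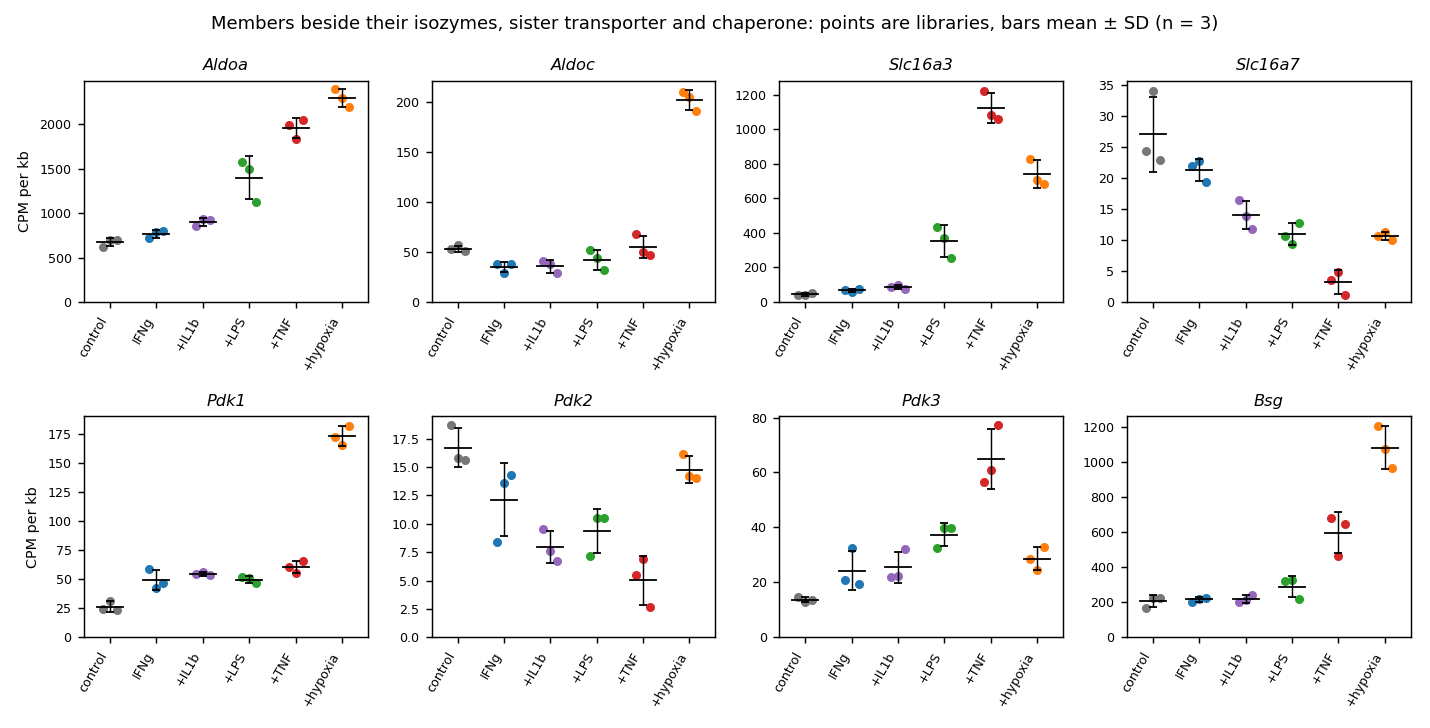
Levels in CPM per kb of deposited width are shown for 3 of the 10 genes beside relatives and the chaperone Bsg, with libraries as points and the mean ± SD (n = 3) as bars, on axes from 0. Pdk1 and Aldoc were highest with hypoxia, Pdk3 was highest with TNF, and Slc16a7 was lowest with TNF where Slc16a3 was highest.

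In upper glycolysis and glucose entry, 12 of 13 genes were tested. IFNg raised 8 and lowered 0, hypoxia raised 7 and lowered 1 (Slc2a6), TNF raised 8 and lowered 3 (Slc2a3, Pfkm and Pfkfb4), LPS raised 8 and lowered 1 (Pfkm, not called without LPS replicate 2, adjusted p = 0.0753). Over all tested genes 13.5% rose with IFNg, 13.5% with hypoxia, 22.1% with TNF and 10.2% with LPS. The shares that fell were 11.8% with hypoxia, 22.6% with TNF and 10.1% with LPS. The numbers lowered by these 3 additions lay near those shares and say nothing particular about the list. With TNF, the call of Slc2a3 was lost without IFNg replicate 3 (0.412), TNF replicate 1 (0.158) or TNF replicate 2 (0.0696), in a fit of only the 2 groups (0.0994) and without a filter on low counts (0.0722), and that of Pfkfb4 without IFNg replicate 3 (0.0812). The glucose transporter gene Slc2a1 rose by 1.62 ± 0.15 with IFNg, 4.0 ± 0.16 with TNF, 3.51 ± 0.15 with hypoxia and 1.89 ± 0.14 with LPS. Of the genes for pyruvate entry into mitochondria, the alternative fate to lactate, 9 of 10 were tested. The counts called lay near the shares over all tested genes given above. TNF raised 0 of the 9, where 22.1% of all tested genes rose, which with so few genes does not set the list apart. IFNg raised Pdhx, TNF lowered Pdha1 and Pdp2, LPS raised Dlat, and hypoxia raised Pdpr and lowered Pdhx. With scaling to the RPKM totals, TNF lowered 5 and hypoxia lowered 3. This scaling moved the median of all genes by -0.321 for TNF and -0.246 for hypoxia. With it, TNF lowered 3985 of all 11563 tested genes. The call of Pdhx with IFNg was lost without any of 5 libraries, the exception being IFNg replicate 2 (adjusted p of 0.0512 to 0.158), and with scaling to the RPKM totals (0.129), and that with hypoxia without IFNg replicate 1 (0.0681), IFNg replicate 3 (0.0506) or hypoxia replicate 1 (0.0928). The calls with TNF were lost without IFNg replicate 3 (0.058 for Pdha1, 0.0547 for Pdp2), and without TNF replicate 1 for Pdha1 (0.0773) or TNF replicate 2 for Pdp2 (0.0613). The call of Dlat was lost without IFNg replicate 1 (0.054), IFNg replicate 2 (0.0848) or LPS replicate 2 (0.102). Pdha1, the catalytic subunit that Pdk1 inhibits, fell by 0.44 ± 0.14 on the log2 scale with TNF. Pdpr, a regulatory subunit of the phosphatase that opposes Pdk1, rose by 1.17 ± 0.18 with hypoxia (adjusted p = 1.66e-05).

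Outside glycolysis, 16 of 17 genes of the HIF pathway and its hypoxia targets were tested. Of these 11 rose with TNF, 10 with hypoxia, 6 with LPS, with 0 lower in each. Over all tested genes 22.1% rose with TNF, 13.5% with hypoxia and 10.2% with LPS. IFNg alone raised 2 and lowered 3. With so few genes, this does not set the list apart from all tested genes, whose shares for IFNg are given above. Hif1a, the oxygen-regulated subunit of HIF-1, whose protein is controlled largely after translation, stood at 113.7 to 130.4 CPM in control, 304 to 343 CPM with IFNg and 1489 to 1861 CPM with TNF (2.35 ± 0.11 against IFNg). With hypoxia it stood at 351 to 383 CPM (0.15 ± 0.11, not called), an estimate that scaling to the RPKM totals turned to -0.09. Vegfa, a HIF target, rose by 4.06 ± 0.23 with TNF and 2.24 ± 0.22 with hypoxia. Egln3, another HIF target, rose by 5.68 ± 0.73 with TNF and by 7.47 ± 0.76 with hypoxia, from a mean of 0.743 CPM with IFNg. With IL1b edgeR and DESeq2 each called 0 genes of these 5 lists. At an unadjusted p under 0.05 in edgeR there were 3 of the 9 isozymes and sister transporters, 1 of 12 in upper glycolysis, 0 of 9 in pyruvate entry, 1 of the 2 chaperones and 2 of 16 in the HIF list, beside 596 of all 11563 tested genes.

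The genes outside the group of 10 whose levels followed the mean of the 9 tested ones most closely over the 18 libraries were P4ha1 (Pearson r = 0.985), Pfkl (0.985), Hk2 (0.982), Pgm1 (0.975), Slc2a1 (0.973), Il13ra1 (0.973), Fam162a (0.970) and Kdm6b (0.969). Only genes whose group means spanned at least 1 log2 unit were considered. The genes most like Pdk1 were others, with Arg1 (0.968), H2-Ob (0.961) and Dapp1 (0.961) first. For Slc16a3 they were Gys1 (0.983), Heatr9 (0.980) and Pfkl (0.979).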

How the data were processed

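The members and lists were chosen with earlier results of these data known. RNA was measured with a stranded poly(A) library kit and single-end reads of 50 bases, per the labels' protocols. Reads were aligned with GSNAP to mm10, per the submitters' processing notes; no source used here gives versions, the counter, its annotation or its strand setting. The authors deposited 1 file a library, with a read count, a width and an RPKM value for every gene. The deposited RPKM values were used only for the library totals they imply, of which 51.7 to 56.5% were counted in genes. Groups were read from sample titles. Counts were tested with edgeR 4.0.16 (TMM, default filterByExpr, robust glmQLFit, glmQLFTest, R 4.3.3) in 1 model over 18 libraries, with adjusted p under 0.05 as the threshold within each comparison. DESeq2 1.42.0 was an alternative. The 3-count floor was 0.151 to 0.255 CPM, which covers counting error only. Correlations used log2(CPM + 0.5). The named genes are all 10 members, genes of the lists, and the 8 (per member 3) non-member genes with the highest correlation. A second Aldoa identifier with 58 counts was not used. Stretches shared between genes came from GENCODE M21 transcripts, and promoters from RefSeq. The scripts were tested on simulated data.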

Additional observations from a re-analysis of the deposited data

How the results depend on the processing

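Over 6 other settings and the removal of each library, 807 of 861 fold changes of the 9 tested genes in the 8 main comparisons kept their direction and their side of the threshold; 32 lost the call, 11 gained it and 11 changed sign. The number called for IFNg against control was 3 to 5 when single libraries were left out, and for IL1b against IFNg it was 1 with DESeq2. Scaling to the totals behind the RPKM values turned Pdk1 to -0.027 for TNF and -0.066 for LPS against IFNg, and to 0.181 for IL1b against TNF; it turned Ldha to -0.063 for TNF against hypoxia and Hif1a to -0.09 for hypoxia against IFNg. The all-gene median shifted under this scaling by -0.152 (IFNg against control), -0.321 (TNF against IFNg), -0.246 (hypoxia against IFNg) and -0.077 (LPS against IFNg). Leaving out single libraries gave -0.123 to 0.876 for Pgk1 in IFNg against control, -0.087 to 0.156 for Pdk1 in LPS against IFNg, -0.09 to 0.114 for Ldha in TNF against hypoxia and -0.3 to 0.193 for Slc16a1 in LPS against IL1b. None of these values passed the test. The causes were not tested. The labels do not say what the shared replicate number marks. Deviations of same-numbered libraries correlated at -0.145 to 0.283 over 45 pairs, over 0.1 in 12 (10 of these between libraries numbered 1), and the own number was the best match in 29, a hint from the data and not the design; the numbers were not taken as pairing the samples. With a replicate block, 5 genes were called in IFNg against control; against IFNg, 8 were called with hypoxia, 6 with TNF, 5 with LPS and 0 with IL1b. The block ended the calls of Eno1 for LPS against IFNg (0.0525) and Pkm for LPS against hypoxia (0.0582). Depth limits Pgk1, Pgam1 and Slc16a1, with 210, 42 and 2916 counts over all libraries.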
